A study of Mus musculus with 29 samples.

Results

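The 10 genes described here encode transcription factors that pattern the nuclei of the hypothalamus and keep the identity of their neurons: Otp, Sim1, Fezf1, Nr5a1, Nkx2-1, Six3, Six6, Vax1, Isl1 and Tbx3. They were taken by gene symbol and are 10 of the 24499 symbols in each count file. Hypothalamic RNA was counted at 9 ages in wild-type C57BL/6 mice whose labels give the sex as male. The ages were postnatal day 5 (P5; 3 libraries), 3 weeks (3), 4 weeks (4), 5 weeks (4), 2, 6, 12 and 18 months (3 each) and 24 months (2, after a partial file was left out), which makes 28 libraries. Every group shared the strain and genotype, single housing, a day of 12 h light and 12 h dark, and dissection about 6 h after lights on. No group was treated, and age was the only labelled difference. Replicates were taken to be separate mice, which the labels do not state, so p-values reflect the spread among libraries, and that may be technical in part.

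As background, the hypothalamus is a set of small nuclei, each with its own combination of transcription factors. Otp, a homeodomain protein, and Sim1, a basic helix-loop-helix PAS protein, are needed for the neuroendocrine neurons of the paraventricular and supraoptic nuclei. Nr5a1 (steroidogenic factor 1) marks the ventromedial nucleus, and Fezf1, a zinc finger repressor, is found in the same nucleus. Nkx2-1 patterns the ventral hypothalamus, and Isl1 and Tbx3 act in arcuate neurons, among them those that make Pomc. Six3, Six6 and Vax1 belong to the anterior forebrain and eye field, and Six6 and Vax1 act in the suprachiasmatic nucleus and in neurons that make gonadotropin-releasing hormone.

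Levels are given in CPM, counts relative to the library size after scaling by the trimmed mean of M-values. Gene counts per library ran from 24661631 to 39783779, and 3 counts corresponded to 0.075 to 0.118 CPM, for counting error only. A member held 4 to 2365 counts in a library, and none was at 0. All 10 members passed the filter on low counts. Changes are log2 fold changes ± 1 SE from edgeR's quasi-likelihood test, and a gene was called below a Benjamini-Hochberg adjusted p of 0.05 over all 16916 genes tested. CPM values after ± are 1 SD between libraries. The 2 P5 libraries numbered 1 and 2 held 22320 and 27507 counts of Xist, which is transcribed from an inactive X chromosome, and 0 counts of 4 Y-linked genes, although labelled male. P5 replicate 3 held 8 counts of Xist and 4415 of the Y-linked genes. The letters th, tha or thal stand in most titles, while the tissue label is hypothalamus. A list of 16 thalamus markers summed to 1169 to 3094 CPM over the libraries, and its part in the results was not tested. That the members were counted does not settle the tissue. The 2-month replicate 11 stood apart from its group: the chi-square distance per gene was 78.3 and 70.9 to the other 2-month libraries, 13.2 between those 2, and at most 55.9 between libraries of 1 other age.

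The members lie on 8 chromosomes in GRCm38 (GENCODE M21): Otp on 13 (94875602 to 94885130), Sim1 on 10 (50894754 to 50989152), Fezf1 on 6 (23245044 to 23248362), Nr5a1 on 2 (38692656 to 38714542), Nkx2-1 on 12 (56531958 to 56536908), Six3 on 17 (85613608 to 85629302), Six6 on 12 (72939892 to 72944899), Vax1 on 19 (59166187 to 59170056), Isl1 on 13 (116298281 to 116309689) and Tbx3 on 5 (119670669 to 119684724). Counts cover whole genes, so no exon or UTR was measured apart. Genes on the opposite strand overlap Nr5a1, Nkx2-1, Six3, Six6 and Tbx3. Those with a row in the files were Six3os1 beside Six3 (6.64 to 25.9 CPM) and 4930447C04Rik beside Six6 (3.23 to 21.0 CPM). Whether counting used strand is not given in the sources used here. Reads of such partners cannot then be told apart, with or without a row. Values of Six3, Six6, Nr5a1, Nkx2-1 and Tbx3 are uncertain to that extent.

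The RefSeq promoter table (GRCm38.p6, 250 bases before to 50 after a start) held 8 of the 10 members, without Nr5a1 and Tbx3. CCAAT, searched on both strands, was found in 6 of these 8 (Fezf1, Six6, Otp, Isl1, Six3 and Vax1), against 37.4% of 32851 promoters. TATAAA was found in 1 (Sim1), against 13.6%. TAATTA, a core that homeodomain proteins bind, was in 0 of 8 and in 5.29% of all. CAAGTG, of the NK2 class, was in 0 of 8 and in 13.6% of all, and CAAGGTCA, a site that Nr5a1 binds, was in 0 of 8 and in 1.56% of all. No pair of these motifs overlapped within a printed sequence. The ratio of observed to expected CpG was 0.761 at the members' median (0.559 to 1.05) and 0.384 at the median of all promoters. The 250 bases before the start are shown for Vax1 and Isl1, which hold 2 CCAAT matches each, and for Nkx2-1, which holds none. These 3 genes are examples, as all 10 members fell at 2 months. The window of Six6, with 2 CCAAT matches, also lies before its gene in GENCODE and is not shown. The 3 windows shown lie before the gene in GENCODE (but for 1 base in Isl1). They are 5′ to 3′ on the gene's strand, with CCAAT or its reverse complement in capitals.
Vax1, chr19:59170398-59170647, minus strand: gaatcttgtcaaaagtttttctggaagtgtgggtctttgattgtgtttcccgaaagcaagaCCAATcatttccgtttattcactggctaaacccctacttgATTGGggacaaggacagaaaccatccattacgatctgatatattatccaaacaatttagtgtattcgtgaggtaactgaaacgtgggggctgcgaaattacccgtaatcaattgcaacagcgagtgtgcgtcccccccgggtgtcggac
Isl1, chr13:116309689-116309938, minus strand: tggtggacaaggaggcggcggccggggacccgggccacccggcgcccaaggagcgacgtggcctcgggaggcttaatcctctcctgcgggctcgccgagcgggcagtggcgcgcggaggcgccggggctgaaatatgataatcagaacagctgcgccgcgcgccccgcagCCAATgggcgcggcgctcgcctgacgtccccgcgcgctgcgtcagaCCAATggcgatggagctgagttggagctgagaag
Nkx2-1, chr12:56536909-56537158, minus strand: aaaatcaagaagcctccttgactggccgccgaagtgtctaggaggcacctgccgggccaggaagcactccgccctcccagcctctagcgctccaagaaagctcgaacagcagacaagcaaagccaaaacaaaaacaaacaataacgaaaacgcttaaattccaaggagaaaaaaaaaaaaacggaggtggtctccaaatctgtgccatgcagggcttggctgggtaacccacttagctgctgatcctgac
A match is a description of the letters and not a measured site.

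Over the 9 ages, the level of every member differed (10 of 10 by edgeR's F-test, adjusted p from 4.37e-07 for Isl1 to 0.0285 for Nr5a1), where 76.8% of all genes tested did. Nr5a1 was lost without 2-month replicate 11 (adjusted p = 0.063) or 12 (0.0852), and Tbx3 without replicate 12 (0.0518). The 2-month libraries stood lowest. The summed level of the 10 genes was 52.5 to 64.9 CPM in the 2-month libraries, 124 to 183 at 5 weeks and 94.0 to 141.5 at 6 months. With the 2-month libraries left out, 5 of 10 differed over the remaining 8 ages (Otp, Fezf1, Six3, Vax1 and Isl1), beside 76.4% of all genes, and Sim1, Nr5a1, Nkx2-1, Six6 and Tbx3 did not pass (adjusted p 0.0623 to 0.191 by edgeR). The plot of all libraries shows this age in red.

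**Figure D1:**
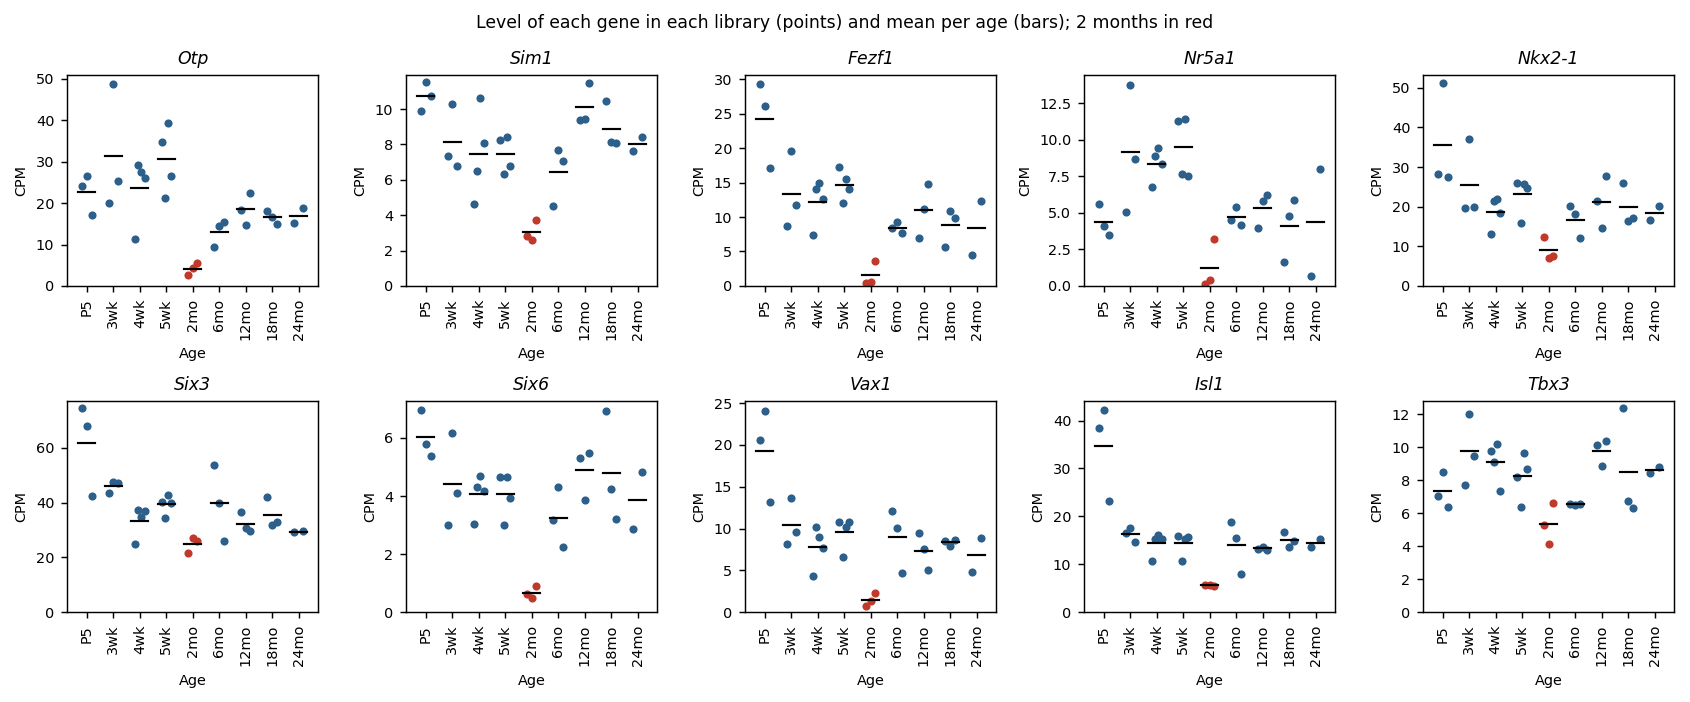
Level in CPM (y axis, from 0) of each of the 10 genes in each library (points) by age (x axis), with the mean per age as a bar and 2 months in red. The 2-month points of Otp, at 2.54, 4.23 and 5.49 CPM, lie under every other library, while those of Tbx3 overlap other ages.

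The change from the first week of life to weaning was asked by setting 3 weeks against P5 (3 libraries each). Isl1 and Vax1 fell, and the other 8 members did not pass. This is 2 of 10 lower and 0 higher, beside 29.3% of all genes called lower and 29.8% called higher, so the share called was not above the background. The median change of the 10 was -0.44 (log2), against -0.01 for all genes. Isl1 was at 38.5, 42.3 and 23.1 CPM at P5 and at 16.5, 17.6 and 14.6 CPM at 3 weeks. Its libraries did not overlap, and its change was -1.09 ± 0.23 (adjusted p = 0.000226, edgeR). Vax1 was at 20.6, 24.1 and 13.1 CPM at P5 and at 8.15, 13.6 and 9.64 CPM at 3 weeks. Its ranges overlapped, with a change of -0.88 ± 0.35 (adjusted p = 0.0363, edgeR).

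For both genes, P5 replicates 1 and 2, the ones with Xist, were the higher P5 libraries. With P5 replicate 3 as the only P5 library, which is then assumed to vary like the other groups, 0 of 10 were called by edgeR, beside 45% of all genes in either direction, with Isl1 at -0.52 (adjusted p = 0.134) and Vax1 at -0.34 (adjusted p = 0.607). Leaving out P5 replicate 1 or 2, or 3-week replicate 1 or 3, each ended the call of Vax1 (adjusted p 0.0788 to 0.136), and 6 of 10 were called without 3-week replicate 2, beside 55% of all genes in either direction. No Y-linked counts were held by 2 of the 3 P5 libraries. Sex by these counts is therefore partly mixed with age, if the 3-week libraries are male as labelled. Xist and Y-linked counts of the other ages are not reported here. Markers of other cell types moved at the same step: 8 of 8 myelin and 8 of 8 microglia markers rose, as did 6 of 8 astrocyte markers (1 fell) and 8 of 16 thalamus markers (2 fell). The summed myelin markers went from 207 to 315 CPM at P5 to 19211 to 24094 CPM at 3 weeks, and microglia markers from 151 to 167 CPM to 335 to 381 CPM. Their part in the members' values was not tested.

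The remaining members moved in both directions between P5 and 3 weeks without passing the test in the fit of 28 libraries. Nr5a1 was at 4.41 ± 1.09 CPM at P5 and 9.18 ± 4.39 CPM at 3 weeks (1.06 ± 0.65, adjusted p = 0.170, edgeR). In a fit of these 2 ages alone it was called, at 1.05 (adjusted p = 0.0438). Its partner in the ventromedial nucleus, Fezf1, was at 24.2 ± 6.29 and 13.4 ± 5.62 CPM (-0.86 ± 0.45, adjusted p = 0.106, edgeR). The 2 genes therefore stood at different proportions within a library. Nr5a1 counts were 15.7 to 20.4% of Fezf1 counts at P5 and 57.9 to 73.9% at 3 weeks, with no overlap. This ratio was noticed in the values and was not tested. Otp and Tbx3, with values of 0.47 ± 0.34 and 0.41 ± 0.21, were the other members with a positive change.

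A list of 30 other transcription factors of the hypothalamus was written with earlier results of these data known. Of these, 12 fell from P5 to 3 weeks and 0 rose, with a median of -0.46. Of all genes, 29.3% were called lower and 29.8% higher. Lhx1, a factor of the suprachiasmatic nucleus, changed by -1.60 ± 0.23 and Lhx9, found in orexin neurons, by -1.72 ± 0.37. The peptides of the paraventricular and supraoptic nuclei went the other way, with 4 of 4 higher at 3 weeks. Oxt (oxytocin) changed by 3.14 ± 0.49 and Trh (thyrotropin-releasing hormone) by 1.45 ± 0.30, beside 0.47 ± 0.34 for Otp and -0.40 ± 0.23 for Sim1, which did not pass.

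From 3 to 5 weeks, the time around puberty, 0 of 10 members were called by edgeR or by DESeq2, and 0 had an unadjusted p below 0.05, where 2.15% of all genes were called in either direction. Changes ran from -0.24 to 0.14 (log2), and of the 30 other factors 0 were called by edgeR (0 at an unadjusted p below 0.05). The 3-week libraries and 4-week replicates 1 and 2 held Bpifa2, a salivary gland gene, and 4-week replicates 3 and 4 and the 5-week libraries held none. With this library set as a term, 0 of 10 were called by edgeR, beside 0.201% of all genes. Only the 4-week libraries hold both sets, so age and set are told apart there alone. A lack of calls in that fit therefore decides little. Across all 11 libraries of 3 to 5 weeks, the highest was 1.66 times the lowest for Isl1 and 4.30 times for Otp (11.3 to 48.8 CPM, median 26.7).

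The step from 5 weeks (4 libraries) to 2 months (3) touched all of the members. All 10 fell, beside 9.43% of all genes called lower and 7.13% called higher. Low levels of these genes in the 2-month libraries were known from earlier results before this comparison was planned. The count therefore describes a known difference. The median change of the members was -1.98 (log2), against 0.01 for all genes. In 9 of 10, every 2-month library lay under every 5-week library, which held for 13.5% of all genes tested, and Tbx3 was the exception. Without 2-month replicate 11, the library that stood apart, 8 of 10 were called, all but Six3 and Tbx3. In that fit 2515 of 16909 genes were called in either direction. The changes ranged from -3.28 to -0.63, so the genes did not fall in equal proportion. In bulk tissue, fewer cells of a type and less RNA per cell cannot be told apart.

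Of the paraventricular factors, Otp fell more than Sim1. Otp was at 34.9, 21.2, 39.5 and 26.7 CPM at 5 weeks and at 2.54, 4.23 and 5.49 CPM at 2 months. Its mean was 7.48 times lower, and the groups were far apart. Sim1 was at 8.25, 6.32, 8.44 and 6.80 CPM at 5 weeks and at 2.83, 2.57 and 3.75 CPM at 2 months (-1.29 ± 0.23, adjusted p = 0.000679, edgeR). Its mean was 2.44 times lower, again with no overlap. The peptides made by these neurons showed the same direction, with 3 of 4 lower (Oxt -3.89 ± 0.50, Avp -3.42 ± 0.57 and Trh -2.10 ± 0.30), and Crh was not called.

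The ventromedial pair had low and uneven 2-month levels. Fezf1 was at 0.471, 0.621 and 3.6 CPM in replicates 11, 12 and 13, against 17.2, 12.1, 15.5 and 14 CPM at 5 weeks. Nr5a1 was at 0.145, 0.385 and 3.25 CPM in the same replicates, against 11.3, 7.70, 11.5 and 7.52 CPM. For both genes replicate 13 was the highest of the 2-month libraries and still under all 5-week libraries. The coefficient of variation between the 2-month libraries was 113% for Fezf1 and 137% for Nr5a1, against 3.0% for Isl1. Without replicate 13 the changes were -4.73 and -5.10, and with it -3.28 ± 0.53 and -2.97 ± 0.72. Among 6 other ventromedial markers, 3 fell: Nptx2 (-0.88 ± 0.19), Gpr149 (-0.79 ± 0.22) and Esr1 (-0.66 ± 0.21), the estrogen receptor alpha gene.

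Among the ventral and arcuate factors the falls were smaller than those of Otp, Fezf1 and Nr5a1, while Isl1 and Nkx2-1 were near Sim1. Isl1, a LIM homeodomain protein, was at 16, 10.6, 15.2 and 15.8 CPM at 5 weeks and at 5.77, 5.71 and 5.45 CPM at 2 months (-1.35 ± 0.23, adjusted p = 0.000542, edgeR). The 2-month libraries of Isl1 differed little among themselves. Nkx2-1 was at 26.1, 15.8, 25.8 and 24.7 CPM at 5 weeks and at 12.4, 7.10 and 7.66 CPM at 2 months (-1.35 ± 0.32, adjusted p = 0.00578, edgeR). Its highest 2-month library was replicate 11, the one with the lowest Nr5a1 and Otp. Tbx3, a T-box repressor, was at 8.21, 6.39, 9.65 and 8.66 CPM and then at 5.26, 4.11 and 6.61 CPM. Its ranges overlapped, and its change of -0.63 ± 0.21 (adjusted p = 0.0368, edgeR) was lost without 2-month replicate 11 or 12 or 5-week replicate 1, 3 or 4 (adjusted p 0.0665 to 0.166), and in a fit of the 2 ages alone (adjusted p = 0.0727). Of 7 arcuate peptides, 3 fell (Ghrh -1.49 ± 0.33, Tac2 -1.02 ± 0.24 and Pomc -1.62 ± 0.40) and Cartpt rose by 0.66 ± 0.21.

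The anterior factors split. Six6 was at 4.67, 2.99, 4.65 and 3.94 CPM at 5 weeks and at 0.616, 0.503 and 0.889 CPM at 2 months, 6.07 times lower in the mean. Vax1 was at 10.8, 6.65, 10.2 and 10.8 CPM and then at 0.725, 1.33 and 2.32 CPM, 6.59 times lower. Six3, which has the same class of homeodomain as Six6, was at 40.4, 34.5, 42.6 and 40.0 CPM and then at 21.7, 27 and 25.9 CPM. It was 1.58 times lower in the mean (-0.66 ± 0.20, adjusted p = 0.0245, edgeR), with no overlap. The call of Six3 was lost without 2-month replicate 11 or 5-week replicate 1 or 3 (adjusted p 0.0509 to 0.0927). Of 6 signalling genes of the suprachiasmatic nucleus, 1 rose and 1 fell, with a median of -0.29.

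**Figure D2:**
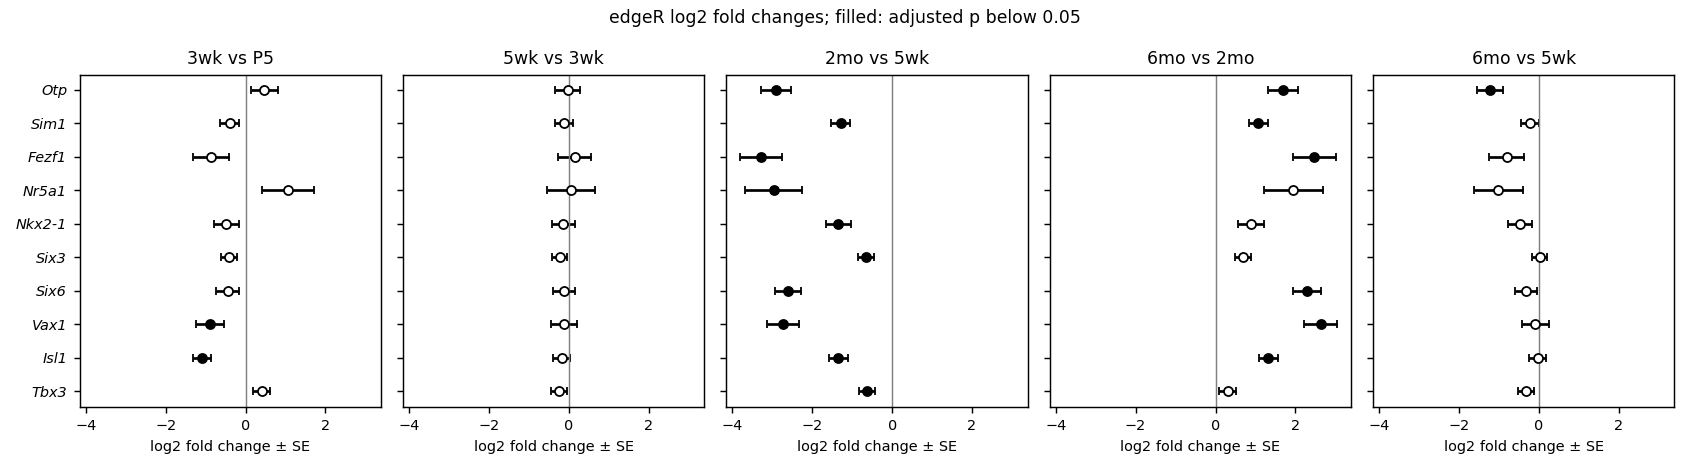
Log2 fold change (x axis) ± 1 SE of each of the 10 genes (rows) in 5 comparisons of ages, by edgeR, with filled points where the adjusted p was below 0.05. All 10 points are filled and negative for 2 months against 5 weeks, and only Otp is filled for 6 months against 5 weeks.

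Other gene groups moved with this step. Their lists were written with earlier results of these data known, so the counts below are descriptions and not an independent check. Of 30 other hypothalamic transcription factors, 12 fell and 1 rose, with a median of -0.74. Hmx3 fell by 2.03, Prdm12 by 1.98, Dlx2 by 1.64, Dlx1 by 1.51, and Bsx and Nkx2-4 each by 1.35 (log2). Sox14, which is also a midbrain marker, was the factor that rose (0.88 ± 0.30). Of 20 tested markers of midbrain and hindbrain, 7 rose and 0 fell, with a median of 1.54. Tfap2b rose by 4.88 ± 0.64, Gata3 by 4.02 ± 0.78 and Tal1 by 2.40 ± 0.48. The summed level of that marker list was 203.7 to 256 CPM at 2 months, 72.0 to 138 CPM at 5 weeks, and 80.6 to 265 CPM at 6 months, where members were higher. At 5 weeks Phox2a, Hoxa2, Hoxa3 and Hoxc4 were among the markers at 0 in all 4 libraries, and at 2 months no marker of that list was at 0 in all 3. The part of these markers in the members' change was not tested. Of 15 pan-neuronal markers, 3 rose and 2 fell, and their summed level was 10334 to 11145 CPM at 2 months and 9739 to 10051 CPM at 5 weeks. Of 8 myelin markers, 0 were called at this step by edgeR (1 at an unadjusted p below 0.05). Of 16 thalamus markers, 1 rose and 1 fell, with sums of 2353 to 2677 CPM at 2 months and 2139 to 2934 CPM at 5 weeks. HTSeq set aside 9.31 to 11.2% of reads for low alignment quality in the 5-week libraries, against 5.41 to 5.77% in those of 2 months, and the part of this was not tested. Replicate numbers at 2 months run from 11 to 13 and at 5 weeks from 1 to 4, and no batch is labelled, so that any batch and age cannot be told apart.

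To ask whether levels at 6 months differed from those at 2 months (3 libraries each), these ages were compared in the same fit. Of the 10 members, 6 rose and 0 fell, beside 1.77% of all genes called higher and 1.83% called lower. The median change was 1.5 (log2), against -0.01 for all genes. In 7 of 10 every 6-month library lay above every 2-month library, which held for 10.7% of all genes. This comparison shares the 2-month libraries, known beforehand to be low in these genes, with the one before. In a fit of these 2 ages alone, 0 of 10 members and 0 of all genes were called by edgeR (2042 genes had an unadjusted p below 0.05), with the 6 changes at 1.08 to 2.63 and adjusted p 0.200 to 0.275.

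The largest rise was that of Vax1, at 12.1, 10.1 and 4.74 CPM at 6 months (2.63 ± 0.42, adjusted p = 0.00273, edgeR). Fezf1, at 8.35, 9.25 and 7.62 CPM, rose by 2.48 ± 0.54 (adjusted p = 0.0178) and Six6, at 3.18, 4.31 and 2.26 CPM, by 2.29 ± 0.35 (adjusted p = 0.00187). These levels lay above the 2-month libraries without overlap. Otp was at 9.53, 14.5 and 15.4 CPM (1.68 ± 0.38, adjusted p = 0.0197), Isl1 at 18.8, 15.4 and 8.02 CPM (1.32 ± 0.24, adjusted p = 0.00569) and Sim1 at 4.53, 7.67 and 7.07 CPM (1.07 ± 0.24, adjusted p = 0.0181). The calls of Otp, Sim1 and Fezf1 were lost without 2-month replicate 11 or 6-month replicate 33 (adjusted p 0.079 to 0.130), which leaves 3 of 10 in each case, beside 0.52% and 0.302% of all genes in either direction.

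The 4 members that were not called had positive values. Nr5a1 was at 4.53, 5.43 and 4.16 CPM (1.95 ± 0.74, adjusted p = 0.129, edgeR), above all 2-month libraries. Without 2-month replicate 13 its change was 4.08 with an adjusted p of 0.0108. Nkx2-1 (0.89 ± 0.33, adjusted p = 0.120), Six3 (0.69 ± 0.21, adjusted p = 0.0628) and Tbx3 (0.30 ± 0.22, adjusted p = 0.426) overlapped with 2 months. Six3 was called by DESeq2 (adjusted p = 0.0184) and by edgeR without 6-month replicate 34 (adjusted p = 0.0083). Beside the members, 5 of the 30 other factors rose (Dlx1, Dlx2, Dlx5, Dlx6 and Prdm12, by 1.64 to 2.55) and Sox14 fell by 1.51. Oxt, Avp and Trh rose, which is 3 of 4 peptides, and 7 of 8 myelin markers fell. Of 12 striatum markers, 0 were called by edgeR (5 at an unadjusted p below 0.05), with changes of 0.07 to 1.72. Their sums were 341 to 853 CPM at 6 months and 332 to 371 CPM at 2 months. The part of striatum in the members' values was not tested.

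The 5-week and 6-month libraries give a step into adulthood whose means do not use 2 months. In the fit of 28 libraries the spread is shared, so the 2-month libraries still enter its SE and p-values. Here 1 of 10 members was called, Otp, which was lower at 6 months, beside 8.39% of all genes called lower and 4.58% called higher. Otp changed by -1.22 ± 0.33 (adjusted p = 0.0174, edgeR), and its mean was 2.32 times lower. The call ended without 5-week replicate 3 (adjusted p = 0.0553) or 6-month replicate 32 (adjusted p = 0.0924). Otp, Fezf1 and Nr5a1 did not overlap between these ages, 3 of 10, and 16.5% of all genes had every 6-month library below every 5-week library. Fezf1 (-0.80 ± 0.43, adjusted p = 0.234) and Nr5a1 (-1.01 ± 0.62, adjusted p = 0.295) did not pass in the fit of 28 libraries. They passed, beside Otp, in a fit of the 2 ages alone (adjusted p = 0.0031 and 0.0064), which makes 3 of 10, beside 19.4% of all genes in either direction. The other 7 members had values of -0.46 to 0.02, and Isl1, Six3 and Vax1, nearest to 0, changed sign when libraries were left out. Of the other factors, 4 of 30 were lower at 6 months (among them Nkx2-4, Bsx and Nr0b1), and 6 of 20 midbrain and hindbrain markers were higher (Tph2 by 4.03 ± 0.88).

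After the values had been seen, 2 wider comparisons were added. Against the mean of 6 to 24 months (11 libraries), 2 months was lower in 9 of 10 members, beside 10.9% of all genes called lower. Six3 was the exception (-0.46 ± 0.17, adjusted p = 0.0547, edgeR), and Six6 (-2.64 ± 0.31) and Fezf1 (-2.59 ± 0.49) showed the greatest differences among the members. Comparing the mean of 6 to 24 months with that of 3 to 5 weeks (11 libraries each), 2 of 10 were lower, beside 26.3% of all genes. These were Otp (-0.80 ± 0.18, adjusted p = 0.000838) and Nr5a1 (-0.96 ± 0.34, adjusted p = 0.0234).

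From 6 to 24 months the members showed no called trend. Of 10 members, 0 were called for a slope over the 11 libraries, 0 had an unadjusted p below 0.05, and 0% of 16553 genes tested were called by edgeR (1552 had an unadjusted p below 0.05). DESeq2 called 126 genes and 0 members. The members' slopes lay between -0.0189 log2 per month (Six3) and 0.0173 (Tbx3). Otp was at 13.2 ± 3.17 CPM at 6 months, 18.6 ± 3.87 at 12, 16.6 ± 1.60 at 18 and 17.0 ± 2.54 at 24 months. Isl1 stayed between 8.02 and 18.8 CPM in these 11 libraries, with a median of 13.7 CPM.

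Single old libraries were low in the ventromedial pair. At 24 months Nr5a1 was at 0.704 CPM in replicate 2 and at 8.01 CPM in replicate 4, and Fezf1 at 4.55 and 12.3 CPM. At 18 months replicate 14 held 1.63 CPM of Nr5a1 and 5.62 CPM of Fezf1, against 4.81 and 5.91 CPM and 10.9 and 9.88 CPM in the other replicates. Otp was at 15.2 CPM in 24-month replicate 2 and 18.8 CPM in replicate 4, and at 18.1, 16.7 and 15 CPM in 18-month replicates 14, 15 and 16. Over the libraries of 6 to 24 months the highest Nr5a1 level was 11.4 times the lowest, while for the other 9 members the figure was 1.95 to 3.25.

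**Figure D3:**
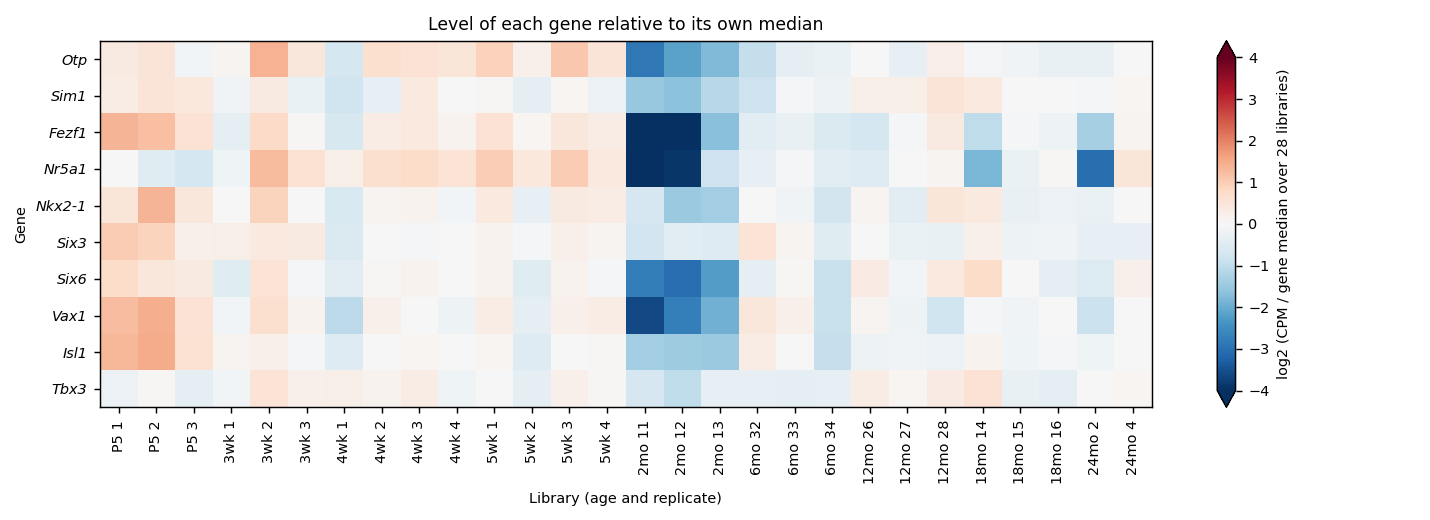
Log2 of the CPM of each gene (rows) over its median in the 28 libraries, by library (columns, age and replicate), with blue below and red above the median and colours ending at 4 in either direction. Replicates 11 to 13 at 2 months are blue in most rows, and 24-month replicate 2 and 18-month replicate 14 are blue for Nr5a1.

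Members varied together within ages. After each age's mean was taken off, the correlation over the 28 libraries was above 0 in 44 of 45 pairs, with a median of 0.459. These are descriptions without a test, since the libraries share their dissection, depth and scaling. The share among pairs of other genes was not worked out, so whether the members stand out is not known. Fezf1 and Nr5a1 had the highest value (0.923), followed by Six3 and Isl1 (0.881), Otp and Sim1 (0.769) and Six3 and Vax1 (0.757). Nr5a1 and Nkx2-1 had the lowest (-0.037). The order of pairs depended on the libraries and on the age means. With age means left in and the 2-month libraries left out (25 libraries), Six3 and Vax1 were highest (0.902), Fezf1 and Nr5a1 were at 0.608, and Otp and Sim1 were at 0.448, below the median of 0.482. With age means left in over all 28, Fezf1 and Vax1 were highest (0.915), with Fezf1 and Nr5a1 at 0.872 and Otp and Sim1 at 0.807.

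The genes most like each member were found by Pearson correlation of log2 CPM over 28 libraries. For Otp they were Arl10 (0.936), Prdm13 and Hmx3, and for Sim1 they were Irs4 (0.919), Peg10 and Vat1l. For Fezf1 they were Hspa13 (0.903), H2-Q2 and Vat1l, and for Nr5a1 they were Chrm5 (0.801), Ugt1a7c and Hspa13. Nkx2-1 was most like Snd1 (0.911), Insm2 and Hap1, and Ebf4 (0.894) and Dlx5 were among the 3 most like Six3. Irs4 (0.941) and Asb4 were among the 3 most like Six6, and for Vax1 they were Magel2 (0.919), Wdr6 and Usp51. Isl1 was most like Dlx1 (0.945), Asb4 and Rab3b, and Tbx3 like Ghrh (0.850), Fzd5 and Wdsub1. H2-Q2 and Ugt1a7c have near-identical relatives, so their counts are uncertain. Some likeness rests on the 2-month libraries. Without them, over 25 libraries, Irs4 with Six6 went from 0.941 to 0.732 and Hspa13 with Nr5a1 from 0.792 to 0.434, while Dlx5 with Six3 was at 0.879 with them and 0.890 without.

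Because the falls at 2 months were unequal, the ratios of related members within a library were set side by side, on log2 of counts plus 1. The 3 ratios were chosen after values were seen and are given as a description, with no test. The ratio of Six6 to Six3 was -5.18 ± 0.443 at 2 months and -3.07 ± 0.487 over 6 to 24 months, with no overlap. Six6 counts were 1.86, 2.84 and 3.44% of Six3 counts in the 2-month libraries and 8.68 to 11.6% at 5 weeks. The ratio of Otp to Sim1 was 0.367 ± 0.459 at 2 months and 0.960 ± 0.145 later, with overlapping ranges, and 2.00 ± 0.201 at 5 weeks, with none. Nr5a1 to Fezf1, at -0.761 ± 0.677 and -1.13 ± 0.593, had overlapping ranges, also with 5 weeks (-0.644 ± 0.190).

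**Figure D4:**
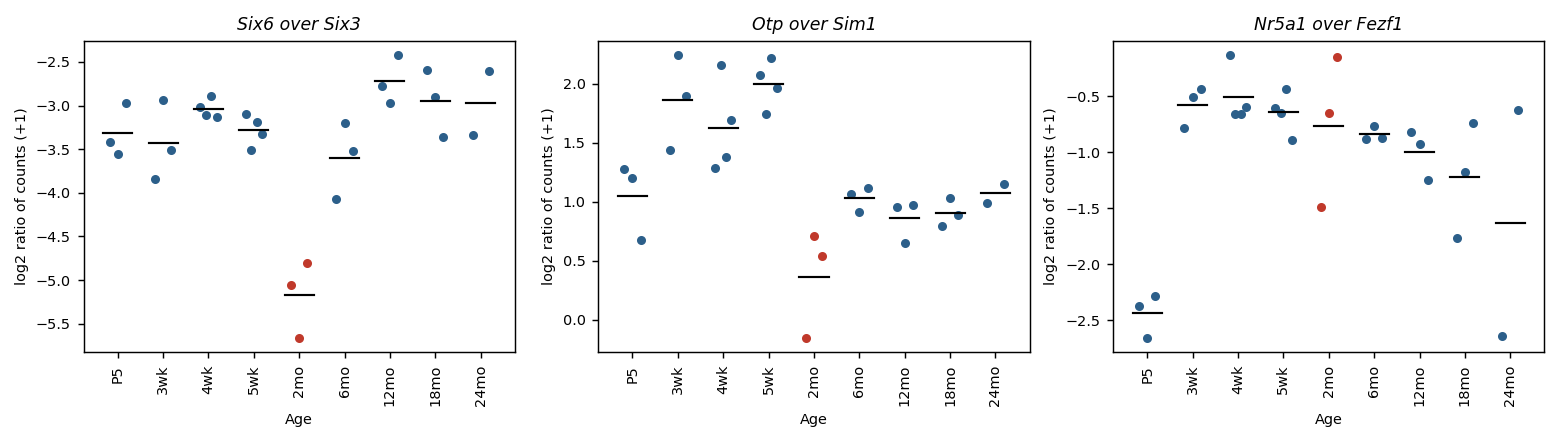
Log2 ratio of counts plus 1 (y axis) of 3 pairs of members in each library (points) by age (x axis), with the mean per age as a bar and 2 months in red. The 2-month points of Six6 over Six3, from -5.67 to -4.80, lie under all other libraries, and the P5 points of Nr5a1 over Fezf1, from -2.66 to -2.28, are low beside 3 weeks.

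Levels can be compared between members only per length, here as CPM per kilobase of GENCODE exons, which differ in length from 1117 bases (Vax1) to 8621 bases (Sim1). At 5 weeks Otp was first (10.6 ± 2.84), then Vax1 (8.60 ± 1.78), Nkx2-1 (8.13 ± 1.72), Six3 (7.23 ± 0.64) and Fezf1 (6.10 ± 0.91). The ranges of each neighbouring pair in that order overlapped between libraries. Isl1 (3.63 ± 0.64), Nr5a1 (2.24 ± 0.52), Tbx3 (1.24 ± 0.21), Six6 (1.01 ± 0.20) and Sim1 (0.86 ± 0.12) followed, with gaps in range between Fezf1 and Isl1 and between Nr5a1 and Tbx3. At 2 months Six3 was first (4.57 ± 0.51), Nkx2-1 next (3.19 ± 1.03) and Six6 last (0.17 ± 0.05). Otp had moved to the fourth place (1.42 ± 0.51). At 24 months Nkx2-1 led (6.50 ± 0.87), and Sim1 was last (0.93 ± 0.07). The gene models behind the deposited counts were not used here, and this order depends on those of GENCODE.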

How the data were processed

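Reads were aligned with HISAT2 2.1.0 to mm10 (GRCm38) and counted with HTSeq 0.9.1, per the submitters' processing notes. The authors deposited raw counts per gene symbol, 1 file per library. HTSeq summary lines (26.1 to 32.5% of each total) were removed. Of 29 libraries, 28 were used, because 24-month replicate 5 holds counts for 1385 genes.

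Counts were filtered with filterByExpr by age, scaled by TMM and fitted with edgeR 4.0.16 (robust quasi-likelihood, R 4.3.3), 1 mean per age over 28 libraries. Tests were two-sided. A separate fit gave the slope from 6 to 24 months. SE is the absolute log2 change over the square root of F. Log2 CPM used a prior count of 1. The fitting was tested on simulated counts. DESeq2 1.42.0, other scalings, no filter, other sets of libraries, a replicate block and leaving out each library were alternatives.

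The members and lists were chosen with earlier results of these data known. Named were all members, up to 6 called genes of the other hypothalamic factors, up to 3 of any other list, smallest p first, and the 3 genes most correlated with each member; some genes that this rule names are not reported here. Genes named beyond that rule (Sox14 at 2 months, Cartpt and Crh) were chosen after their values were seen. Sequences are from RefSeq.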

Additional observations from a re-analysis of the deposited data

Results flagged for a closer look

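Groups of 4 libraries, at 4 and 5 weeks, were examined for a single library far from the rest. Of 20 such groups (10 genes at 2 ages), 5 held one. The genes share the same libraries and varied together, so the groups are not separate trials and no chance rate is given. At 4 weeks, replicate 1 was low for Otp (11.3 CPM, others 26.2 to 29.1) and Isl1 (10.7 CPM, others 15.3 to 16.2). At 5 weeks, replicate 2 was low for Nkx2-1 (15.8 CPM, others 24.7 to 26.1), Vax1 (6.65 CPM, others 10.2 to 10.8) and Isl1 (10.6 CPM, others 15.2 to 16).

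The partial 24-month library (replicate 5), outside every comparison, held 287 counts of Sim1 and 0 of the other 9 members. It has 2377580 counts in 1385 genes. In CPM of those genes alone, Sim1 stood at 121, against 115 in replicate 2 and 123 in replicate 4.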

How the results depend on the processing

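With the partial library included (all 29 libraries), 0 of 10 members were called for 3 weeks against P5 and over the 9 ages. The same held for 2 months against 5 weeks, 6 against 2 months and 6 months against 5 weeks. Calls over all genes fell too, in the same order to 340, 484, 1, 0 and 0 of 16736. Without the partial library they were 9986, 12991, 2802, 608 and 2193 of 16916. In a fit of the ages compared alone, 0 were called for 6 against 2 months and 3 for 6 months against 5 weeks. With P5 replicate 3 alone, 0 were called for 3 weeks against P5. Without 2 months, 5 differed over 8 ages. The comparison of 6 to 24 months with 3 to 5 weeks, added after the data were seen, called 2. The cause was not tested. Leaving out each library gave 1 to 6 members for 3 weeks against P5, 8 to 10 for 2 months against 5 weeks, 3 to 7 for 6 against 2 months, 0 to 1 for 6 months against 5 weeks, 8 to 10 for the 9 ages (Nr5a1 lost without 2-month replicate 11, Nr5a1 and Tbx3 without replicate 12), and 0 for 5 against 3 weeks and for the slope. DESeq2, in that order of comparisons, called 2, 10, 7, 1, 10, 0 and 0. Over all genes DESeq2 called 10041, 3157, 1259, 2670, 13563 and 479 of 16916, and 126 of 16553 for the slope. Leaving out each library called 9182 to 9390 of all genes for 3 weeks against P5 and 1778 to 2858 for 2 months against 5 weeks. It called 51 to 1348 for 6 against 2 months and 1292 to 1946 for 6 months against 5 weeks.

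Replicate numbers of the labels were not used as pairs in the main fit. Deviations from the age mean correlated at 0.0737, 0.240 and 0.156 between same-numbered libraries of P5 and 3 weeks. Different-numbered ones ran from -0.337 to 0.177. Between 3 and 5 weeks the values were -0.351, -0.477 and -0.284 for the same number and -0.318 to 0.530 otherwise. As deviations are centred within few libraries, these values cannot show whether samples were paired. With the replicate block, 5 members were called for 3 weeks against P5, beside 10377 of 16022 genes. For 5 against 3 weeks 0 were called, beside 13 of 15665 genes. The other comparisons share no numbers.

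Sign changes were confined to values not called in the 28-library fit. Isl1 at 6 months against 5 weeks was 0.013 with library totals only. Six3 at 3 weeks against P5 was 0.11 with P5 replicate 3 alone. At 5 against 3 weeks Otp was 0.10 with the replicate block, and Fezf1 was -0.20 and Nr5a1 -0.11 with the library set as a term. Slopes in log2 per month with all 29 libraries were -0.0141 for Otp, -0.0238 for Nkx2-1, -0.0168 for Six6, -0.0238 for Isl1 and -0.0140 for Tbx3. From 2 to 24 months they were 0.0655 for Fezf1, 0.0448 for Nr5a1, 0.00475 for Six3 and 0.0509 for Vax1. Leaving out libraries, 5 against 3 weeks ran from -0.27 to 0.43 for Otp, -0.24 to 0.073 for Sim1, -0.091 to 0.52 for Fezf1, -0.24 to 0.46 for Nr5a1, -0.30 to 0.23 for Nkx2-1, -0.34 to 0.19 for Six6 and -0.27 to 0.11 for Vax1. At 6 months against 5 weeks it ran from -0.25 to 0.25 for Six3, -0.37 to 0.21 for Vax1 and -0.30 to 0.25 for Isl1. Slopes ran from -0.0254 to 0.0169 for Fezf1, -0.0688 to 0.0190 for Nr5a1, -0.00467 to 0.0147 for Nkx2-1 and -0.00823 to 0.0183 for Isl1. Depth limits Nr5a1 most, at 4 counts in its lowest library.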
